A study of Mus musculus with 2 samples.

Results

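The 8 genes described here belong to the Krüppel-like factor (KLF) family of transcription factors: *Klf2*, *Klf3*, *Klf4*, *Klf6*, *Klf7*, *Klf10*, *Klf12* and *Klf13*. They were chosen by name, to be placed beside *Klf2*, and each was taken from its brightest probe set with exactly 1 gene symbol, out of 19938 genes named in this way. The arrays measured RNA of CD3+CD4+ T cells sorted from the pancreatic lymph nodes (PLN) of BDC mice. These are NOD mice whose transgenic T cell receptor comes from a diabetogenic clone specific for β cells, so that most of their CD4+ T cells share 1 specificity. One pool came from mice given the nondepleting anti-CD4 antibody YTS177 (ND αCD4) and the other from mice given the isotype control Ab 2A3, both 48 hours after 1 mg of antibody in mice of 8 weeks. The 1 mg is listed for both samples, whereas the methods give a higher dose range for 2A3 than for YTS177. They also state that PLN of 3 mice were pooled. The labels and the paper number the BDC clone differently. With 1 array per condition, the differences described here were not replicated, and p values cannot be given. In RNA from a cell pool, a different share of cells that express a gene and a different amount of RNA per cell cannot be told apart.

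KLF proteins bind GC-rich and CACCC-type DNA through zinc fingers at their C-terminal end, and their differing N-terminal parts recruit activating or repressing partners. In resting T cells, KLF2 is a regulator of quiescence and of exit from lymphoid tissue, in part through the S1P receptor gene *S1pr1*, and its expression depends on Foxo1 and is lost when the T cell receptor is strongly engaged. Several of the family are also immediate-early genes, which are induced within minutes to hours by growth factors or stress.

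*Klf6* was 1.62-fold and *Klf2* 1.42-fold higher after ND αCD4, and none of the other 6 KLF genes differed by as much as 0.32 on the log2 scale. Genes above background in at least 1 array count as detected. Background lay at 7.64 on the log2 scale for isotype control Ab and at 7.56 for ND αCD4, a level that olfactory and vomeronasal receptor probe sets rarely pass. Of the 8 genes, 7 were detected, and *Klf12* was below background in both arrays. The log2 ratio (ND αCD4 minus isotype control) was above 0 in 6 of the 7 and below 0 in 1, where 46.7% of the 13214 detected genes had a ratio above 0 and 52.7% below. One of the 7, *Klf6*, was at least 1.5-fold higher and none was at least 1.5-fold lower, against 0.212% of detected genes for the higher and 1.01% for the lower direction. By a smaller size rule of 0.32 on the log2 scale, 2 were higher and none was lower, against 1.51% and 3.89% of detected genes. The median log2 ratio of the 7 was 0.21, and that of all detected genes was -0.01.

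**Figure D1:**
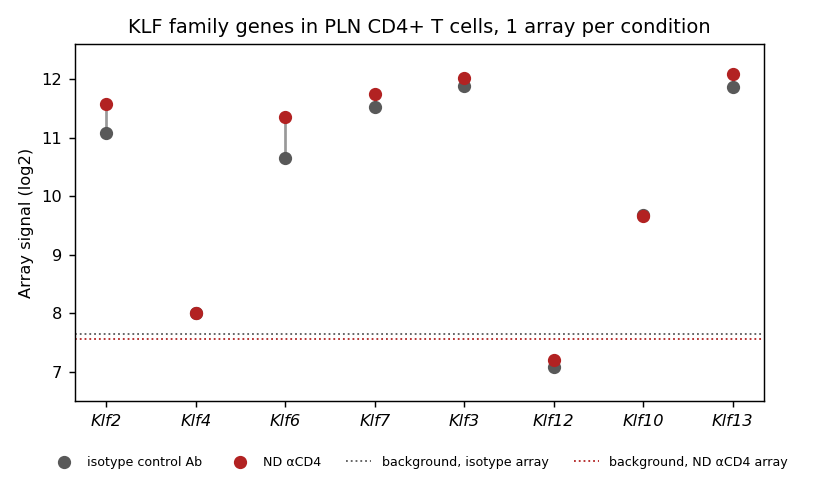
Array signal (log2) of the 8 KLF genes under isotype control Ab (gray) and ND αCD4 (red), 1 array each, with each gene's points connected and dotted lines at each array's background. *Klf6* goes from 10.66 to 11.35 and *Klf2* from 11.08 to 11.58, the points of *Klf4* and *Klf10* lie on each other, and *Klf12* lies under background. Since probes differ between genes, levels can be compared only within a gene.

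The first group by role holds *Klf2*, *Klf4*, *Klf6* and *Klf7*, which are known mainly as activators. *Klf6* (probe set 10403352), a broadly expressed immediate-early factor, gave a log2 signal of 10.66 under isotype control Ab and of 11.35 under ND αCD4. This is a log2 ratio of 0.69, or 1.62-fold higher. Counting itself, 18 of the 13214 detected genes (0.136%) had a ratio at least as high, as did 3 of the 2404 detected genes whose mean signal lay within 0.5 of its own. *Klf2* (probe set 10572800), the egress regulator, gave 11.08 and 11.58 in the same order, a log2 ratio of 0.50 or 1.42-fold. That was short of 1.5-fold, and 47 detected genes (0.356%) had a ratio at least as high, 9 of them among the 1962 genes of near signal. *Klf7* (probe set 10355141), a factor studied mostly in neurons, had a signal of 11.53 and 11.74, a ratio of 0.21. At this size it was not unusual, since 4.97% of detected genes had a ratio at least as high. *Klf4* (probe set 10513008), an inhibitor of cell division in T cells and a pluripotency factor, had a signal of 8.00 and 8.02 and a log2 ratio of 0.01. Its signal was only 0.36 above background under isotype control Ab.

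The 4 genes thus ran from a ratio near 0 to the highest of the family, and *Klf4* and *Klf6*, at those ends, are both immediate-early genes. The spread between different probe sets of 1 gene was used as a rough scale of error. Its SD was 0.0929 on the log2 ratio (550 genes with 2 detected probe sets), or 0.131 for a difference between 2 genes, and it leaves out any difference between mice, sorts or hybridizations. Measured by it, *Klf6* lay above *Klf2* by 0.19 and *Klf2* above *Klf7* by 0.29, both more than 1 SD of a difference, which is not a test. In the order of the other detected genes (*Klf7*, *Klf13*, *Klf3*, *Klf4*, *Klf10*), no gene differed from its neighbor by more than that SD. Only neighbors in the order of the ratios were compared.

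**Figure D2:**
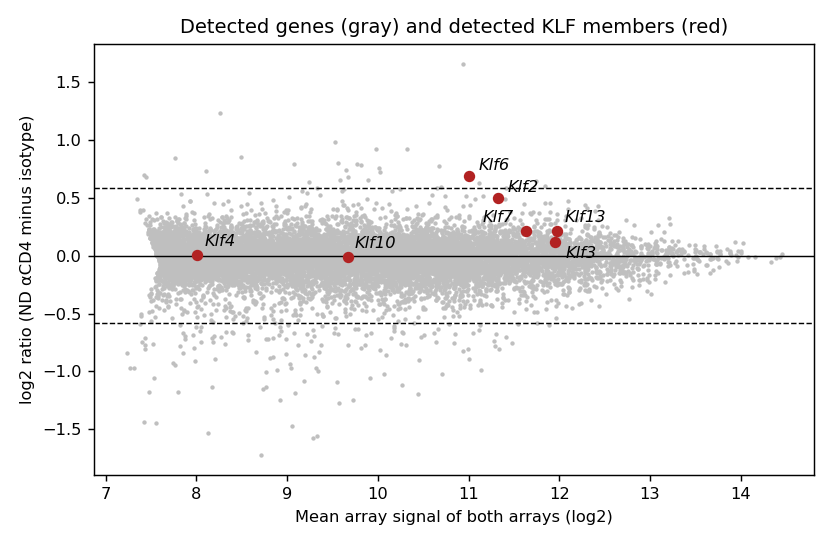
Log2 ratio (ND αCD4 minus isotype control) against mean array signal (log2) for each detected gene (gray) and the 7 detected KLF genes (red), with dashed lines at 1.5-fold. *Klf6* at 0.69 lies outside the dashed line and *Klf2* at 0.50 just inside it, while *Klf4* and *Klf10* lie at 0.

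The promoters of the highest genes, *Klf2* and *Klf6*, and of *Klf4*, whose ratio was near 0, are shown because all 3 encode inducible activators with differing ratios here. The windows run from 250 bases before to 50 after the RefSeq gene start (GRCm38.p6), 5′ to 3′ on the strand of the gene, at chr8:72318812-72319111, plus strand for *Klf2*, chr13:5861239-5861538, plus strand for *Klf6* and chr4:55532426-55532725, minus strand for *Klf4*. Capitals mark a match to the GC box GGGCGG on either strand and, in *Klf2*, a match to the MEF2 box.
Klf2: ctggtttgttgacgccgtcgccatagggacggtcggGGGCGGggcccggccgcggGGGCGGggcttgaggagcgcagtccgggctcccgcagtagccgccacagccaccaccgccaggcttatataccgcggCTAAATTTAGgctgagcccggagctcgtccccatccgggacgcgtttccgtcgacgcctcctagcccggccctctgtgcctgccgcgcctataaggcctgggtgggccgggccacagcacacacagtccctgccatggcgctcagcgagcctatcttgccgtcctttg
Klf6: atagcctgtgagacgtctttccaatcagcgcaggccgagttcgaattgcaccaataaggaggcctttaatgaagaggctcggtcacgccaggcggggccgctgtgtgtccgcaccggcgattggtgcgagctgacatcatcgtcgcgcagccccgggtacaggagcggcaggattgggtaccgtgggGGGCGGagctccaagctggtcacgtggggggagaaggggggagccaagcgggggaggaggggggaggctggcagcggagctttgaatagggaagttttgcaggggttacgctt
Klf4: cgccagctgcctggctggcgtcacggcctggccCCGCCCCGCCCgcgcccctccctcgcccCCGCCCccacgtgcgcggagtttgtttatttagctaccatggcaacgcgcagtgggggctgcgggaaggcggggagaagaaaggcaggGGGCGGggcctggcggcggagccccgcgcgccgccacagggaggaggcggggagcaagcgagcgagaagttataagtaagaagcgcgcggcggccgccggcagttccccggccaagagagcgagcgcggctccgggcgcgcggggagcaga
A promoter window was at hand for 7 of the 8 genes, all but *Klf10*. The GC box, the type of site that KLF and Sp proteins bind, was found in 6 of the 7 windows (not in that of *Klf12*), against 35.9% of 32544 promoter windows of the same length. The *Klf2* window held 2 of them and the *Klf4* window 4, while the *Klf6* window held 1. The MEF2 box, the site type through which the kinase ERK5 and MEF2 factors are known to induce *Klf2*, was found in the *Klf2* window alone of the 7, starting at base -118 from the gene start, against 0.559% of all windows. The FOXO site GTAAACA was in 0 of the 7 windows, against 3.66% of all windows, as were the AP-1 site TGANTCA (7.79% of all windows), the cAMP response element TGACGTCA (1.8%) and the CArG box of serum response genes (1.64%). The CACCC box CCACACCC (3.57%) and the TATA box TATAAA (13.6%) were each found in 1 of the 7, that of *Klf12*. The windows of 6 genes held 16 to 40 CpG dinucleotides and that of *Klf12* held 6, where the median of all windows was 7. A match describes these letters only, and the lack of one says nothing of sites elsewhere.

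The second group, *Klf3* and *Klf12*, encodes repressors that recruit the corepressor CtBP. *Klf3* (probe set 10522051), which acts in B cell development and competes with other KLF proteins for their sites, gave a log2 signal of 11.89 under isotype control Ab and 12.01 under ND αCD4. The log2 ratio of 0.12, or 1.09-fold, was reached or passed by 14.5% of detected genes. *Klf12* (probe set 10422013) had a signal of 7.09 and 7.21, both below background, and has no fold change here. *Klf8*, the other CtBP-binding gene of the family and a known target of repression by KLF3, went from 7.19 to 7.57. It reached background only in the ND αCD4 array and by 0.0076, so its log2 ratio of 0.38 gives no bound above 1-fold.

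The third group, *Klf10* and *Klf13*, encodes repressors that bind the corepressor SIN3A. *Klf10* (probe set 10428302), a TGF-β-induced gene that takes part in *Foxp3* expression and in restraint of T cell activation, gave a log2 signal of 9.67 under isotype control Ab and 9.66 under ND αCD4. Its log2 ratio of -0.01 made it the only detected member below 0, and it was well above background (by 2.03 under isotype control Ab). *Klf13* (probe set 10564290), an inducer of the chemokine gene *Ccl5* late in T cell activation, had a signal of 11.87 and 12.08, a ratio of 0.21, and 5.24% of detected genes had one at least as high. The remaining SIN3A-binding genes of the family were *Klf9* at 0.20, *Klf11* at 0.41, *Klf14* at 0.07 and *Klf16* at 0.003. *Klf11*, like *Klf10* a TGF-β-inducible early gene, thus went from 8.95 to 9.36, or 1.33-fold higher, beside the ratio of -0.01 for *Klf10*. A ratio as high as that of *Klf11* was seen in 0.651% of detected genes.

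Over the whole family, 17 *Klf* genes were measured, and 13 exceeded background in both arrays. The log2 ratio was above 0 in 12 of the 13 and below 0 in the other, with a median of 0.12, and *Klf6* alone was past 1.5-fold. *Klf8*, which passed background only where it was higher, is left out of this count. Of all detected genes, 46.7% had a ratio above 0 and 0.212% were at least 1.5-fold higher. *Klf5*, grouped with the activators, was at 0.11 (8.70 and 8.82), and *Klf15*, outside the 3 groups above, was at 0.05 (8.04 and 8.09). *Klf1*, the red blood cell factor, and *Klf17* did not exceed background in either array. Of the related Sp factors, 5 of 8 measured genes were detected, 4 with a ratio above 0 and 1 below 0, and none reached 0.32. *Sp3* had a ratio of 0.22 in its brightest probe set and 0.07 in its other one.

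**Figure D3:**
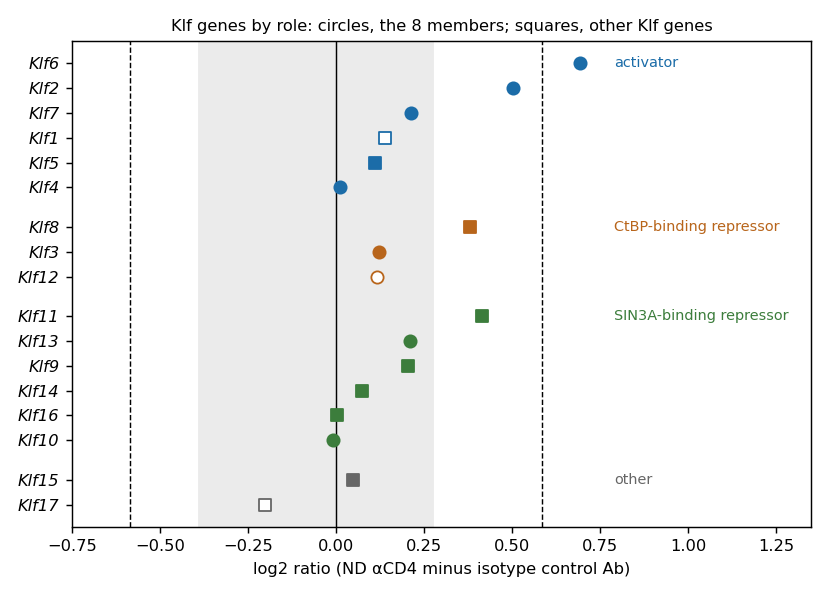
Log2 ratio (value under ND αCD4 minus that under isotype control Ab) for the 17 measured *Klf* genes by role, with circles for the 8 chosen genes and squares for the others. Open symbols are genes below background in both arrays, the gray band holds the middle 95% of detected genes (-0.39 to 0.28), and dashed lines mark 1.5-fold. *Klf6*, *Klf2*, *Klf11* and *Klf8* lie to the right of the band, and *Klf8* only just reached background in 1 array.

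The partners of the KLF proteins differed little. All 13 listed corepressors and coactivators were detected, 6 with a log2 ratio above 0 and 7 below 0, with a median of -0.08, and none reached 0.32 in size. The acetyltransferases that serve as coactivators, *Crebbp* at 0.20, *Ep300* at 0.20 and *Kat2b* at 0.16, were above 0, and the deacetylase gene *Hdac2* was at -0.20. *Ctbp1*, the partner of KLF3, was at -0.08, and *Sin3a*, the partner of KLF10 and KLF13, at 0.06.

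Genes that act upstream of *Klf2* were mostly above 0 by small amounts. Of 13 genes above background in both arrays, 10 had a ratio above 0 and 3 below 0, with a median of 0.14, and none reached 0.32 in its brightest probe set. *Mef2c*, which passed background after ND αCD4 only, is not counted. Of all detected genes, 46.7% had a ratio above 0. *Foxo1* was at 0.20 (12.46 and 12.66). The largest were *Kmt2d*, a histone methyltransferase, at 0.25, *Smurf1* and *Wwp1*, ubiquitin ligases that target KLF2 for degradation, at 0.23 and 0.22, and *Mef2d*, a MEF2 factor, at 0.22 (0.37 in its other probe set). Of the kinase genes of the ERK5 cascade, *Map3k3* was at 0.20, *Mapk7* (ERK5) at 0.03, *Map2k5* at -0.001 and *Map3k2* at -0.01.

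Genes tied to KLF2 activity and egress were mixed. The list holds genes that KLF2 is known to induce and others that it restrains. Of all detected genes on the arrays, 46.7% had a log2 ratio above 0. Among the 12 detected genes of this list it was above 0 in 9 and below 0 in 3, and the median was 0.21. The highest were *Il7r* at 0.61, *S1pr4* at 0.47, *S1pr1* at 0.41 and *Il6ra* at 0.38, and *Il7r* was the 1 past 1.5-fold. The study displays *Klf2*, *Il7r* and *S1pr1* from these samples and names *S1pr4*, so they are not independent evidence of direction. *Itgb7*, an integrin gene induced by KLF2, was at 0.32 (11.73 and 12.05). *Prdm1*, an effector cell gene, was at 0.24, and the cell cycle inhibitor gene *Cdkn1b* at 0.18 (0.46 in its other probe set). The chemokine receptor gene *Cxcr3* was at 0.07 and *Ccr7*, a homing receptor gene of resting T cells, at 0.03. The 3 below 0 were *Myc* at -0.31, *Cd69* at -0.27 and *Tbx21* at -0.27.

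Genes related to the other members gave no common direction. A log2 ratio above 0 was seen in 46.7% of all detected genes. In the TGF-β pathway, in which *Klf10* acts, 9 of 13 detected genes were above 0 and 4 below 0, with a median log2 ratio of 0.03. The inhibitory *Smad7*, which KLF10 is known to repress, was the highest at 0.31, and *Foxp3* was at -0.07. Of 6 genes described as targets of *Klf3*, *Klf6* or *Klf13* and above background in both arrays, 3 were above 0 and 3 below 0. *Ccl5*, the known target of KLF13, was at 0.28 (11.81 and 12.09), *Lgals3*, repressed by KLF3, was at 0.20 (8.68 and 8.88), and the survival gene *Bcl2l1* was at -0.35.

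**Figure D4:**
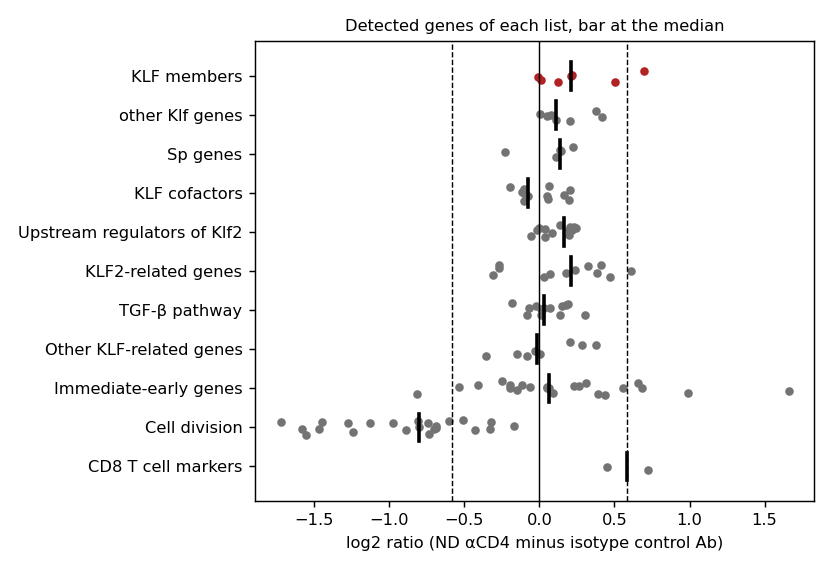
Log2 ratio (ND αCD4 minus isotype control) for the detected genes of each list, a point for each gene and a bar for the median, with dashed lines at 1.5-fold. The median of the KLF members (red) is 0.21 and that of the cell division genes -0.80. Height within a list was set at random.

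Several other gene groups differed between the 2 pools together with *Klf6* and *Klf2*, and their part in the KLF values was not tested. Of 21 immediate-early and handling genes above background in both arrays, 13 were above 0 and 8 below 0, where 46.7% of all detected genes were above 0. The median log2 ratio of the 21 was 0.06. At least 1.5-fold higher were 3, against 0.212% of all detected genes: *Jun* at 1.66, *Ppp1r15a* at 0.99 and *Fos* at 0.65. By the same rule 1 was lower, *Hsph1* at -0.82, against 1.01% of all detected genes. The largest short of 1.5-fold were *Junb* at 0.56 and *Dusp1* at 0.44 above 0, and *Nr4a1* at -0.54 and *Egr2* at -0.41 below 0. *Rhob*, which passed background only after ND αCD4, was at least 1.10-fold higher. Among the KLF genes that are themselves immediate-early genes, *Klf6* and *Klf2* were higher, and *Klf4* and *Klf10* were at 0.01 and -0.01. *Klf4* lay only 0.36 and 0.45 above background in the 2 arrays. Whether these values and those of the other immediate-early genes have a common source was not tested. Cell division genes were lower, 16 of the 21 above background in both arrays by at least 1.5-fold, against 1.01% of all detected genes. Their median was -0.80. Both CD8 T cell markers were higher, *Cd8a* from 9.67 to 10.39 and *Cd8b1* from 11.38 to 11.83, with a summed linear signal 1.43-fold that of the isotype control array, although the sort was for CD4+ cells.

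The markers of the labelled cell type were all present, with the 7 measured CD4 T cell genes detected in both arrays, *Cd3e* at 13.76 and 13.78 and *Cd4* at 13.38 and 13.48. Endothelial and myeloid cells express *Klf2* and *Klf4* strongly, so their genes were examined too. Of 5 endothelial genes, *Kdr*, *Tek* and *Emcn* were below background in both arrays, *Cdh5* was at 7.80 and 7.86, and *Pecam1*, which T cells also express, was at 11.87 and 11.97. Of 5 macrophage and monocyte genes, *Cd68* was at 9.17 and 9.40 (a log2 ratio of 0.23) and *Lyz2* was at 8.02 and 8.13. *Csf1r* and *Adgre1* were below background in both arrays, and the summed linear signal of all 5 was 1.10-fold that of the isotype control array. The summed signal of 4 measured B cell genes was 1.09-fold, led by *Cd79b* at 10.34 and 10.44. Of 5 fibroblast genes, 4 were detected, led by *Col1a1* at 9.25 and 9.12, and the sum was 0.940-fold. The 4 measured pancreas acinar genes summed to 0.984-fold. Of the red blood cell genes 1 was measured, *Alas2*, at 7.46 and 7.74.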

How the data were processed

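RNA of sorted CD3+CD4+ PLN T cells was hybridized to 2 Affymetrix mouse gene arrays, 1 per condition. The authors deposited 1 log2 value for each of 35557 probe sets. Per the labels, Affymetrix Expression Console was used; for its version, background correction and normalization the sources used here give nothing. The log2 scale was inferred from the values (2.52 to 14.7, medians of 8.15 and 8.15). The probe sets match the annotation of an earlier array version than the one in the paper. The number of arrays limits the precision.

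Probe sets were named from the platform annotation, and 21789 had 1 symbol, 1621 several and 12147 none. The 21698 that matched the RefSeq gene table kept their symbols. The probe set with the highest mean stood for a gene, and each of the 8 KLF genes had 1. For background, the 95th percentile of 1205 receptor probe sets (olfactory and vomeronasal) was taken in each array. The value under isotype control Ab was subtracted from that under ND αCD4, and a 1.5-fold size rule was used with no test. Promoter windows came from RefSeq, as 300 bases each, and protein sequences were not used here.

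The members, lists, roles and rules were chosen with earlier results of these data known. The text names all *Klf* genes, from each list up to 4 detected genes whose log2 ratio was farthest from 0, *Foxo1*, *S1pr1* and marker genes of high signal. Chosen after their values were seen were *Itgb7*, *Prdm1*, *Cdkn1b*, *Cxcr3*, *Ccr7*, *Mef2c*, *Myc*, *Cd69*, *Tbx21*, *Ctbp1*, *Sin3a*, *Map3k2*, *Map3k3*, *Map2k5*, *Mapk7*, *Foxp3*, *Sp3*, *Fos*, *Junb*, *Dusp1*, *Nr4a1*, *Egr2*, and the markers below background. The role groups and the window of 0.5 in signal were also set after the data were seen. Alternatives were quantile normalization, median centring, lowess (fraction 0.3, 3 iterations), a floor at background, averaged probe sets, other filters and other size rules. The work used matplotlib 3.10.9, statsmodels 0.14.6, pandas 2.3.3 and numpy 2.4.6 under Python 3.11.15.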

Additional observations from a re-analysis of the deposited data

How the results depend on the processing

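A log2 ratio or median counted as moved when an alternative changed it by over 0.0929 (the SD between probe sets of a gene), and a count when it changed by over 1.5 times. Of 316 comparisons with an alternative, 311 stayed within these limits and 5 moved. Many of them could not move, or hardly could, so these numbers are no measure of robustness. Genes with 1 probe set stay the same when probe sets are averaged, and many of the compared counts were 0. Median centring took *Klf2* only from 0.5032 to 0.5013. Floored at background, *Klf12* was at -0.078, which is only the difference between the background levels, since both its values lie under them. Under the same setting the red blood cell median, 1 gene, was 0.10. With no filter the endothelial median was -0.058. At the smaller size rule (0.32 on the log2 scale), 2 KLF members were higher, and at 2-fold 0 were. *Klf6* ranged from 0.69 to 0.71 and *Klf2* from 0.50 to 0.52 over the scalings, so *Klf6* stayed past and *Klf2* short of 1.5-fold. The floor and the mean of probe sets could not change either gene, since each had 1 probe set and lay above background in both arrays. *Klf10* stayed between -0.01 and -0.005. No paired analysis was possible because each condition has 1 array. For the same reason no array could be left out, and differences between mice, sorts and hybridizations cannot be told apart from treatment.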
